A study of Homo sapiens with 2 samples.

Results

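The regions described here are 493 distal intergenic sites listed as peaks for TCF7L1 and not for its DNA-binding mutant. They were chosen by position and by the peak lists themselves, from 3663 distinct regions of the TCF7L1 sample. Of these regions, 3531 (96.4%) overlapped no region of the TCF7L1-MUT sample, so having no partner in the mutant list was the rule for the list as a whole and not a feature of the distal sites. A member had its summit outside every protein-coding gene, over 5 kb and at most 100 kb from the closest TSS (transcription start site) of a protein-coding gene and over 2.5 kb from every lncRNA TSS, with under 50% of the 31-base words around the summit found more than once in the genome. Of 3487 partnerless regions on chromosomes 1 to 22 and X, 775 lay outside genes at that distance. The lncRNA rule left 643, the copy rule removed 150 of these, and 493 remained.

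Both samples came from HCT116 cells, a human colon adenocarcinoma line, that expressed the short hairpin shTCF7L1-2 against endogenous TCF7L1. They carried a doxycycline-inducible pCW57.1 lentiviral construct for FLAG-tagged TCF7L1 or for the same protein with a mutated DNA-binding domain (TCF7L1-MUT), induced with 1 µg/ml doxycycline, and chromatin was precipitated with an anti-FLAG antibody. Each group had 1 sample, so no difference between the groups has a replicate check. The precipitated protein was the introduced one, and its level relative to the endogenous protein is not in these data.

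TCF7L1, also called TCF3, belongs to the TCF/LEF family, whose HMG box binds the minor groove of DNA at a core that begins with CTTTG. Without Wnt signal, TCF/LEF factors recruit Groucho/TLE corepressors and hold target genes down. When beta-catenin accumulates it binds their amino terminus and, for most members, turns them towards activation, whereas TCF7L1 is known mainly as a repressor. In colon tumour cells beta-catenin is constitutively stabilised, and many TCF/LEF-bound elements are enhancers that lie far from any promoter, often together with AP-1 (JUN and FOS dimers) and intestinal factors such as CDX, GATA and HNF4.

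The sequence of 10 sites is given first, to show what the DNA at the summits looked like. Each is the summit base with 100 bases to either side, plus strand, hg38, in lower case, with matches in capitals. The first set holds the 4 strongest sites with a match to the TCF core, spelled CTTTGAA or CTTTGAT or CTTTGTA or CTTTGTT on either strand. In the MAP9 site the second run of capitals is a forkhead match.
MAP9 site, chr4:155427123-155427323: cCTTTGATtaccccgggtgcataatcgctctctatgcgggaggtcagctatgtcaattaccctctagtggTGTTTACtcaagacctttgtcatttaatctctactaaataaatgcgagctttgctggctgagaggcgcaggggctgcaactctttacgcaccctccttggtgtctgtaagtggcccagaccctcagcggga
DCLK1 site, chr13:36163853-36164053: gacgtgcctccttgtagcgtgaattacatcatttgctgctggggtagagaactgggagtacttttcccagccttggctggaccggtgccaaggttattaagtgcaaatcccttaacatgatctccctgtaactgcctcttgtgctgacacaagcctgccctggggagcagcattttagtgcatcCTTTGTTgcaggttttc
GADD45A site, chr1:67700707-67700907: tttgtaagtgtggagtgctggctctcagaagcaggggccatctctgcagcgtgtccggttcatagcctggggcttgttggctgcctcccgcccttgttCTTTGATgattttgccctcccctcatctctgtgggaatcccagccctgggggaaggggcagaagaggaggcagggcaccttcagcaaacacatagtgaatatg
ARSD site, chrX:2894980-2895180: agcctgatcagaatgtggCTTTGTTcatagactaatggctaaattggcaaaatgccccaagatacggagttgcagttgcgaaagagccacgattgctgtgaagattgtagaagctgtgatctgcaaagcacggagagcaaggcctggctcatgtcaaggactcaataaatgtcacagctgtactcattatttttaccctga

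The MAP9 site had a fold enrichment of 9.04, which is the summit's read pileup over the local background, with 1 added to each. It lay 50253 bp upstream of the TSS of MAP9, which encodes a microtubule-associated protein. The DCLK1 site lay 32571 bp upstream of DCLK1, a doublecortin-like kinase gene that marks tuft cells of the gut, with a fold enrichment of 7.97. The GADD45A site lay 15131 bp downstream of the TSS of GADD45A, a stress-induced growth arrest gene, at 7.91. The ARSD site lay 14840 bp downstream of the TSS of ARSD, an arylsulfatase gene, at 7.55. In MAP9 the core stood at the very edge of the window, while in GADD45A it stood at the summit.

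The next set shows the 2 strongest sites that held both the TCF core and an AP-1 match, TGACTCA or TGAGTCA, within the same window.
OR1M1 site, chr19:9075670-9075870: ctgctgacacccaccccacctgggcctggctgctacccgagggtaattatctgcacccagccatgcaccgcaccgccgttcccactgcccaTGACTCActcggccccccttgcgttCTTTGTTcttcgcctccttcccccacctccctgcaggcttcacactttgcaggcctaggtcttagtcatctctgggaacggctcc
IFNL4 site, chr19:39258471-39258671: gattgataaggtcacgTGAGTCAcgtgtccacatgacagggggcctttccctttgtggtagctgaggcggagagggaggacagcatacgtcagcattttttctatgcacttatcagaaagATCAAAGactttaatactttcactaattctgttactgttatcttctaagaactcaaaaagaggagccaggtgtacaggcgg

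Of the pair, the OR1M1 site, upstream of an olfactory receptor gene, had a fold enrichment of 5.85 and the IFNL4 site, upstream of an interferon lambda gene, 5.64. The core is read on the plus strand in the OR1M1 window and on the minus strand in the IFNL4 window.

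The third set shows the 2 next strongest sites, after MAP9 above, with a forkhead (FOX) match, TGTTTAC or TATTTAC, found on either strand.
LPAR1 site, chr9:111099675-111099875: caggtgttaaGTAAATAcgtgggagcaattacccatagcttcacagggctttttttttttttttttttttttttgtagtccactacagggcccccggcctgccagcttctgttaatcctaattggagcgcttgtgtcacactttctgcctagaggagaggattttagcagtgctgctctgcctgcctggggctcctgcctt
FOXD2 site, chr1:47536794-47536994: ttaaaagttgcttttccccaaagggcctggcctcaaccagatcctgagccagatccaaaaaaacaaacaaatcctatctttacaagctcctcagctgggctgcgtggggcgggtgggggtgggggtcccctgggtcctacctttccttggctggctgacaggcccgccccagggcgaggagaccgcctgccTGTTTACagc

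The LPAR1 site had a fold enrichment of 7.92 and lay 61305 bp upstream of the gene of a lysophosphatidic acid receptor. The FOXD2 site had 6.94 and lay 98850 bp downstream of the TSS of a forkhead factor gene. The last set shows 2 of the 3 strongest sites with no match to any of the 3 patterns, since most members were of this kind. The ALKAL1 site, which ranked between them, is not printed.
LRRC63 site, chr13:46278638-46278838: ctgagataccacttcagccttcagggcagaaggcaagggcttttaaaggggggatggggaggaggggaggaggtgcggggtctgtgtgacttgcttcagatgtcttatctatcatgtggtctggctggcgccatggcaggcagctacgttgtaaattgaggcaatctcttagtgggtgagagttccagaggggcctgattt
BDP1 site, chr5:71385378-71385578: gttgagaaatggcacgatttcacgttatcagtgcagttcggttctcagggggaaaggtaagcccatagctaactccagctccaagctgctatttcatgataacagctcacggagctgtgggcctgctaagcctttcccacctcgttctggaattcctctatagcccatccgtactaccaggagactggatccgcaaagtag

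The LRRC63 and BDP1 sites reached fold enrichments of 10.8 and 8.81. The first was above all 4 of the strongest sites with a TCF core, and the second above all of them except MAP9. Over all members, 316 of 493 windows (64.1%, Wilson 95% interval 59.8 to 68.2) held neither the TCF core nor AP-1 nor FOX. All intervals here cover counting error only, and regions of 1 library are not replicates, so no p-value is given.

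The sites were of moderate strength. Their median fold enrichment was 4.81 (binomial 95% interval of the median 4.67 to 4.91), with quartiles at 4.12 and 5.59 and a range of 2.84 to 10.9. The median −log10 q-value was 5.55, from 1.31 to 48.04. Reads at the summit, recovered as whole numbers from the deposited values, had a median of 22 over a local background of 3.88. The median region was 402 bp wide. The peak lists hold no library totals, and the totals that the study's supplement states were not used here, so these counts are on the scale of the one library. As strength was part of how the peak caller listed the regions, it is a description of the members.

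Compared with 3 other classes of single-copy TCF7L1-only regions, the distal sites sat between promoters and deserts. The 288 regions flanking promoters and the 144 at lncRNA starts were not compared. The 683 regions within 1 kb of a protein-coding TSS had a median fold enrichment of 4.58 (4.51 to 4.66), the 790 regions within genes 5.01 (4.91 to 5.10), and the 416 regions over 100 kb from any TSS 5.26 (5.10 to 5.42). Reads at the summit went the other way in the desert, with a median of 19 against 22 at the distal sites, and the desert background was 2.85 against 3.88. The higher fold of the desert regions thus stood on fewer reads over a lower background.

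The 10 strongest distal sites lay near genes of varied function. The highest fold enrichment, 10.9 on 75 reads, was at chr11:13873289-13873902, 89178 bp upstream of SPON1, which encodes a secreted matrix protein, and its window held an AP-1 match. The LRRC63 site followed with 10.8 on 30 reads, and the MAP9 site with 40 reads. The site upstream of ALKAL1, which encodes a ligand of the ALK receptor, had 8.94 on 39 reads. The BDP1 site, near the gene of a subunit of the polymerase III factor TFIIIB, stood at 8.81 on 16 reads over a background of 0.93, so its rank rested on a low background.

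The site at chr12:48021647-48022279, 17374 bp upstream of COL2A1, the type II collagen gene, had 8.51 on 69 reads. The SNCAIP site, near the gene of an alpha-synuclein interacting protein, had 8.44 on 37 reads. Next came DCT, a melanin synthesis enzyme gene, with 8.40 on 66 reads, and RAB38, a small GTPase gene of melanosome transport, with 8.04 on 21 reads. DCLK1 closed the 10 with 26 reads. Of these 10 sites, MAP9 and DCLK1 held a TCF core match within 100 bp of the summit. By reads rather than fold, SPON1, COL2A1 and DCT stood above the other seven.

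**Figure D1:**
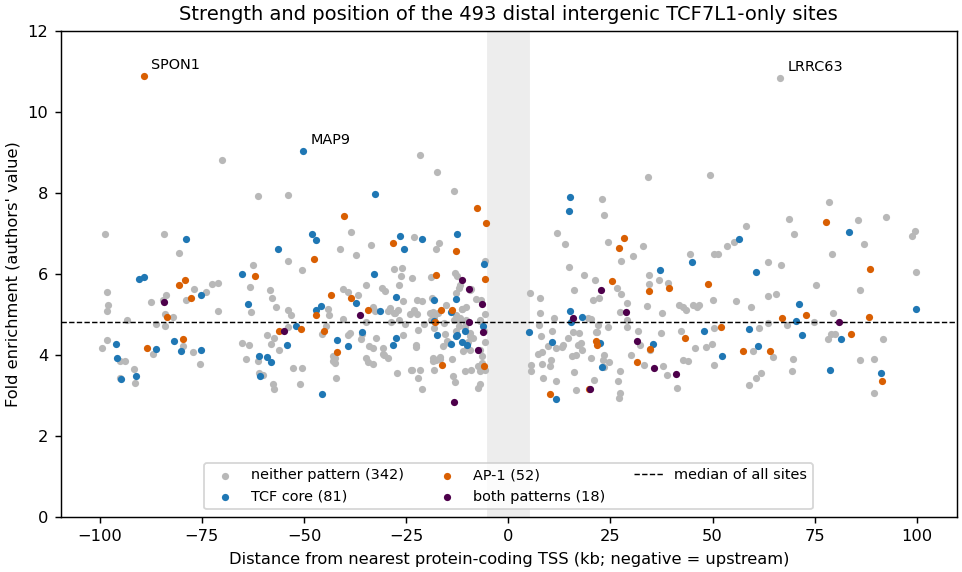
Fold enrichment (vertical axis, authors' ratio) of each of the 493 sites against its distance from the nearest protein-coding TSS in kb (horizontal axis, negative for upstream). Points are coloured by a TCF core match, an AP-1 match, both (18 sites) or neither, the dashed line is the median of 4.81, and the grey band is the 5 kb around the TSS that the rule leaves out. Strong and weak sites occur at all distances and with or without either pattern.

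Position was bounded by the rule, and within it the sites were spread over the whole span. The median distance to the TSS was 33211 bp (29175 to 36798), with quartiles at 17100 and 58976 bp. There were 48 sites between 5 and 10 kb, 142 between 10 and 25 kb, 139 between 25 and 50 kb and 164 between 50 and 100 kb. Per megabase of eligible intergenic sequence these were 0.713, 0.882, 0.802 and 0.807 sites, so no distance held them densely. Median fold enrichment was 4.51 (4.13 to 4.83) in the nearest group and 4.85 (4.63 to 5.13) in the farthest, with intervals that overlapped. Upstream of the nearest TSS lay 293 sites (59.4%, 55.04 to 63.7), where the eligible sequence itself was 61.9% upstream. A further annotation was an lncRNA gene body, which held 112 sites (22.7%).

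Members were chosen to overlap no mutant region, and the mutant list held only 128 regions on chromosomes 1 to 22 and X. Wide gaps between the lists therefore say little by themselves. The smallest gap between a site and a TCF7L1-MUT region was 69700 bp, with 0 sites within 10 kb and 1 within 100 kb. On chromosomes that had a mutant region lay 444 sites. In the mutant list of 204 regions, 23 lay at such intergenic places and 1 of these was single-copy. That one, near HGH1, had a fold enrichment of 6.59 in TCF7L1-MUT and overlapped a TCF7L1 region of 5.47. The lists hold called regions only, so a site missing from the mutant list has no mutant value here.

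The limits of the rule cut through a continuous range of regions. Just inside the 5 kb limit were sites near STXBP2 (5143 bp, fold enrichment 4.57) and CCN5 (5353 bp, 5.53), and just outside it were regions near RHPN2 (4965 bp, 4.84) and RASL10B (4821 bp, 6.70). At the 100 kb limit, ROBO1 (99785 bp, 5.13) and EVX1 (99771 bp, 6.04) were in, while KLHL1 (100654 bp, 6.65) and FAM171A1 (101709 bp, 5.00) were out. For the lncRNA limit the nearest inside were KLF11 at 2562 bp (3.97) and SMUG1 at 2566 bp (4.28), with HOXD3 at 2484 bp (5.01) and MNX1 at 2444 bp (4.82) outside. For repeated words, sites with 85 and 84 of 171 words found more than once were kept, at 5.07 and 5.00, and a region near LYZL1 with 86 was left out (3.11). Most members were far from that limit, as 398 (80.7%) had no repeated word.

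The rule used the number of sequence copies but none of the patterns searched, and the flanks and territory given as backgrounds did not have to meet its copy limit. The windows had a mean GC content of 51.1%, against 43.5% in windows 1 kb to either side and 41.9% in the 3009113 windows of the same intergenic territory. Since GC content alone changes how often a short word occurs, each pattern is given against the flanks, the territory, and the territory weighted to the GC content of the sites in steps of 2%.

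The TCF core was found in 99 of 493 windows (20.1%, 16.8 to 23.8). It was in 13.2% of flanking windows (11.2 to 15.4), a difference of 6.90 points (Newcombe 95% interval 2.90 to 11.1), and in 16.4% of all territory windows, or 9.83% at the GC content of the sites. The ratio was thus 1.52, 1.23 or 2.04 by background, on the same side of 1 each time. The 4 spellings did not contribute alike. CTTTGAA occurred 6.69 times per 100 site windows against 2.74 in flanks, CTTTGAT 6.49 against 3.35 and CTTTGTT 7.71 against 4.46, whereas CTTTGTA occurred 2.03 times against 3.65.

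In a search that reached 100 bp from the summit, the median offset of the match over the 99 sites was 37 bp, against 51 bp for AP-1 and 49 bp for FOX. Matches spread evenly over that span would have a median near 50 bp, so the AP-1 and FOX offsets show no centring within it. These offsets cannot show centring on a wider scale, for which other window widths were used. For the TCF core, the ratio to the flanks was 1.93 within 50 bp of the summit (11.8% against 6.09%), and within 250 bp it was 1.22 (39.4% against 32.3%). The AP-1 ratio was also higher near the summit, at 3.67 within 50 bp (6.69% against 1.83%) and 2.55 within 250 bp (22.5% against 8.82%). The FOX ratio was lower within 50 bp than within 250 bp. A looser TCF pattern, TTTGAA or TTTGAT or TTTTAA or TTTTAT, plotted as TTTKAW, which overlaps the core, was in 47.3% of sites. This was below the flanks (55.2%) and the territory (61.0%) but above the territory at the sites' GC content (34.5%), so its direction depended on the background.

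AP-1 showed the largest ratio to flanks of the 3 main patterns. It was in 70 windows (14.2%, 11.4 to 17.6), against 4.16% of flanks (3.08 to 5.59), 3.19% of the territory and 3.50% at the same GC content, which gave ratios of 3.41, 4.44 and 4.05. The difference from the flanks was 10.0 points (6.89 to 13.6). FOX was in 35 windows (7.10%, 5.15 to 9.71) against 5.68% of flanks, a difference of 1.42 points whose interval included 0 (−1.12 to 4.33). It was in 6.61% of the territory, a ratio of 1.07, and in 2.94% at the sites' GC content.

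**Figure D2:**
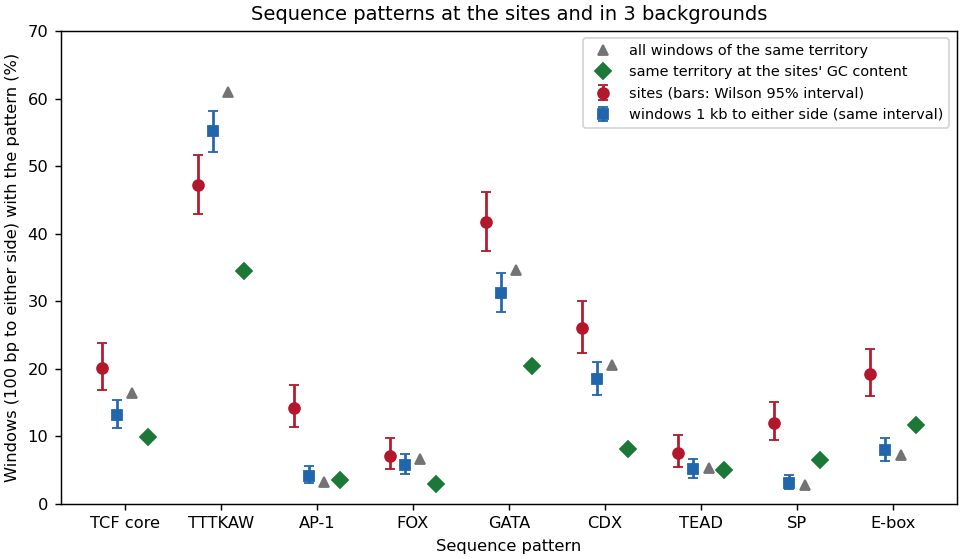
Share of windows (100 bp to either side of the summit) with each pattern (vertical axis, %) at the sites and in 3 backgrounds, with Wilson 95% intervals for sites and flanks. AP-1 at 14.2% stands above its backgrounds of 3.19% to 4.16%, the TCF core at 20.1% above 9.83% to 16.4%, and the looser TTTKAW lies among its backgrounds.

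Among the intestinal factors, patterns of GATA factors (AGATAA or AGATAG or TGATAA or TGATAG) were in 206 windows (41.8%, 37.5 to 46.2) against 31.2% of flanks, 34.7% of the territory and 20.4% at the same GC content. CDX, the caudal homeobox factors of the intestine (TTTATGA or TTTATGG or TTTATTA or TTTATTG), had 128 windows (26.0%, 22.3 to 30.0) against 18.5%, 20.6% and 8.11%. The HNF4 pattern (CAAAGTCCA or CAAAGTTCA) was in 2 windows, 0.406% against 0.507%, 0.515% and 0.415%. The GATA and CDX differences from the flanks, 10.5 points (5.35 to 15.8) and 7.51 points (3.04 to 12.2), excluded 0 by their counting intervals. These are letters of a motif family, and which factor, if any, was bound is not measured here.

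Of the other patterns, the E-box CAGCTG of basic helix-loop-helix factors was in 95 windows (19.3%, 16.03 to 22.98) against 7.91% of flanks, 7.21% of the territory and 11.6% at the same GC content. The SP pattern GGGCGG was in 59 (11.97%) against 3.04%, 2.82% and 6.53%, and the KLF pattern, GGGCGGGGC or GGGCGTGGC or GGGTGGGGC or GGGTGTGGC, one spelling of which contains the SP pattern, in 15 (3.04%) against 1.12%, 0.739% and 1.66%. TEAD (ACATTCC or GCATTCC) was in 37 (7.51%) against 5.07%, 5.33% and 4.95%, with an interval of the difference from the flanks of −0.107 to 5.36 points. RUNX (TGTGGTTA or TGTGGTTT) had 2.03% against 1.93%, 2.52% and 1.57%. The ETS pattern CCGGAAGT and the core pattern of CTCF were each in 2 windows (0.406%). For ETS the backgrounds were 0% of flanks, 0.0899% of the territory and 0.146% at the same GC content, and for CTCF 0.101%, 0.0917% and 0.173%.

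The patterns were largely found in separate sites. The TCF core and AP-1 shared 18 windows (3.65%), the core and FOX 6, AP-1 and FOX 3, and no window held all of them. The core was in 25.7% (16.9 to 37.0) of the 70 AP-1 sites and in 19.1% (15.7 to 23.2) of the 423 others. With these overlapping intervals, a link between the patterns was not detectable at this number of sites. Besides OR1M1 and IFNL4, the shared windows included those near FOXO3, a forkhead factor gene (fold enrichment 5.06), and BIK, a proapoptotic BCL2 family gene (5.25). These were picked as examples after their values were seen.

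**Figure D3:**
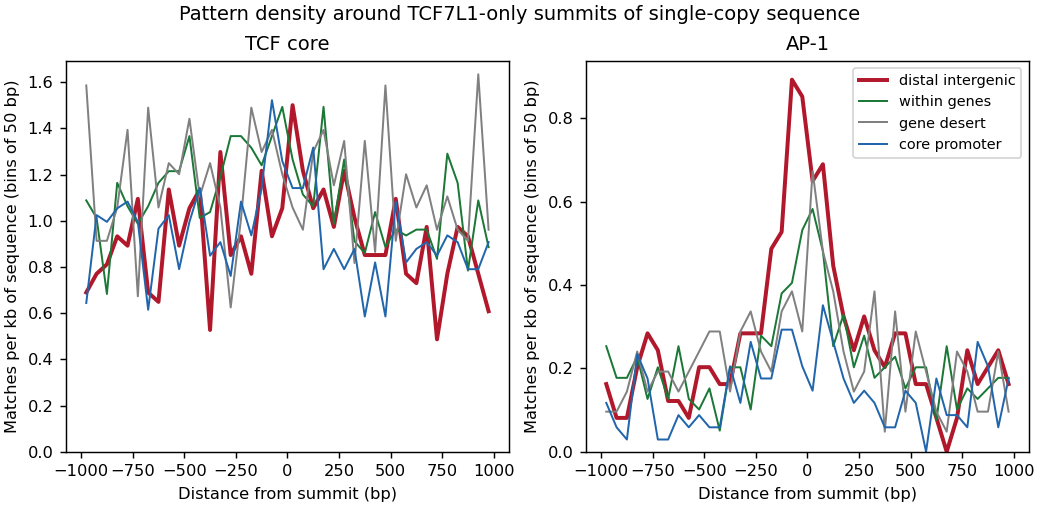
Matches per kb of sequence (vertical axis) in bins of 50 bp by distance from the summit in bp (horizontal axis), for the TCF core (left) and AP-1 (right), at the 493 distal sites (thick line) and 3 other classes of single-copy TCF7L1-only regions. AP-1 matches at the distal sites form a central peak that is above the other classes in the bins near the summit, except from 0 to 50 bp after it, where the distal sites had 0.649 and the gene desert 0.673 matches per kb, while the TCF core at the distal sites is highest beside the summit, at 1.501 matches per kb, with a height close to that of the other classes.

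Pattern content was compared with the same 3 other classes of single-copy TCF7L1-only regions over 14 patterns, with intervals not adjusted for their number. For AP-1, the distal sites at 14.2% were above the core promoters at 4.39% by 9.81 points (6.47 to 13.4), above the regions within genes at 9.49% by 4.71 points (1.11 to 8.54) and above the desert regions at 8.65% by 5.54 points (1.37 to 9.64). Flanks of these classes held AP-1 in 2.34%, 3.35% and 2.52% of windows, and those of the distal sites in 4.16%. AP-1 was thus above its own flanks in every class, and the higher share at the distal sites came with higher flanks. Whether the excess over the flanks differed between classes was not tested. The TCF core was as common elsewhere within error, at 21.2%, 21.9% and 18.8%, with differences of −1.15 points (−5.76 to 3.60), −1.82 points (−6.29 to 2.84) and 1.33 points (−3.88 to 6.44). Its backgrounds were not alike. Flanks of these classes held the core in 15.2%, 17.0% and 19.7% of windows, and those of the distal sites in 13.2%. The desert share was thus not above that of its own flanks.

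Against core promoters, the distal sites also had more GATA by 21.3 points (15.96 to 26.5), CDX by 14.8 points (10.3 to 19.4) and FOX by 3.29 points (0.697 to 6.17), and fewer SP. Core promoters had a median GC content of 55.2% against 50.7% at the distal sites, and the part of GC content in these differences was not tested. Against regions within genes and in deserts, GATA, CDX and FOX differed by less than their intervals, and the looser TCF pattern was lower at the distal sites, with differences of −6.16 points (−11.7 to −0.533) and −9.95 points (−16.3 to −3.43).

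**Figure D4:**
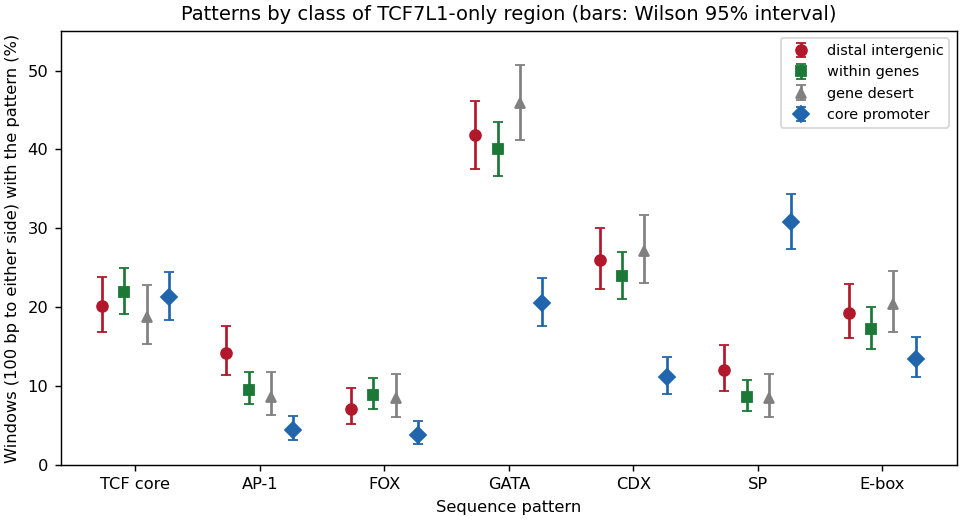
Share of windows (100 bp to either side of the summit) with each pattern (vertical axis, %, Wilson 95% intervals) at 493 distal intergenic, 790 within-gene, 416 gene-desert and 683 core promoter TCF7L1-only regions. The TCF core is close to 20% in all 4 classes, and GATA and CDX separate the core promoters from the rest. AP-1 is highest at 14.2% in the distal sites, whose flanks, not drawn here, also held it most often among the 4 classes.

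Stronger sites did not hold the TCF core more often in order. In groups set by the quartiles of fold enrichment, from the lowest up, the core was in 14.5%, 27.6%, 17.9% and 20.3% of windows. AP-1 was in 10.5% (6.23 to 17.1), 13.8%, 14.6% and 17.9% (12.1 to 25.6) of windows in the same order. GATA was in 36.3% (28.4 to 45.0), 40.7%, 41.5% and 48.8% (40.1 to 57.5). Both shares rose at each step, though the intervals of the lowest and highest groups overlapped, and a trend was not tested. CDX was in 19.4% (13.4 to 27.2), 26.0%, 23.6% and 35.0% (27.1 to 43.7). The groups had median GC contents from 50.2% to 51.7%. The median fold enrichment was 4.71 (4.49 to 5.06) with the core and 4.81 (4.67 to 4.93) without it.

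The sites were nearest to 433 protein-coding genes of 19962 (2.17%), which says where they lie and not which gene they act on. Of these genes, 384 were nearest to 1 site, 40 to 2 and 9 to 3 or more. A total of 51 (11.8%) also had a TCF7L1-only region within 2.5 kb of a TSS, as did 4.29% of all protein-coding genes. Only genes with eligible intergenic sequence can be among the 433, a limit not applied to the 19962, so these shares are not matched. Among the 51 were SNCAIP and DCLK1, with promoter regions of 7.29 and 5.62. Sites within 25 kb of each other formed 26 stretches that held 56 sites (11.4%), of which 4 stretches had 3.

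The 9 genes with 3 or more sites follow with the fold enrichment of each site. Their eligible intergenic sequence ranged from 66.3 kb at TBX4 to 188 kb at TLE3. TLE3, a Groucho corepressor that binds TCF/LEF factors, had 4 sites, on both sides of the gene, at 4.28, 4.12, 3.72 and 3.48, all below the median of all sites. LYZL1, a lysozyme-like gene, also had 4, from 3.28 to 5.10, and 3 of them lay within one stretch upstream. HEY1, a repressor gene induced by Notch, had 3 upstream sites at 4.17, 3.66 and 3.48. None of the TLE3 sites and 1 of the HEY1 sites held a TCF core. The share over all sites was 20.1%, so counts this small do not set these genes apart.

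HAND1, a basic helix-loop-helix factor gene of heart and mesoderm, had 3 upstream sites at 5.68, 5.54 and 4.51. NR2F2, the COUP-TFII nuclear receptor gene, had sites at 5.37, 3.98 and 3.07. For TBX4, a T-box gene of limb development, they stood at 4.13, 3.76 and 3.43, and the first held both the TCF core and AP-1. ZNF703, a zinc finger corepressor gene, had 4.27, 4.13 and 3.16. PIM1, a serine/threonine kinase gene, had 5.10, 4.99 and 4.91, and OLA1, an ATPase gene, 6.32, 5.67 and 4.55. OLA1 was the only one of the 9 whose sites were all downstream of the TSS.

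**Figure D5:**
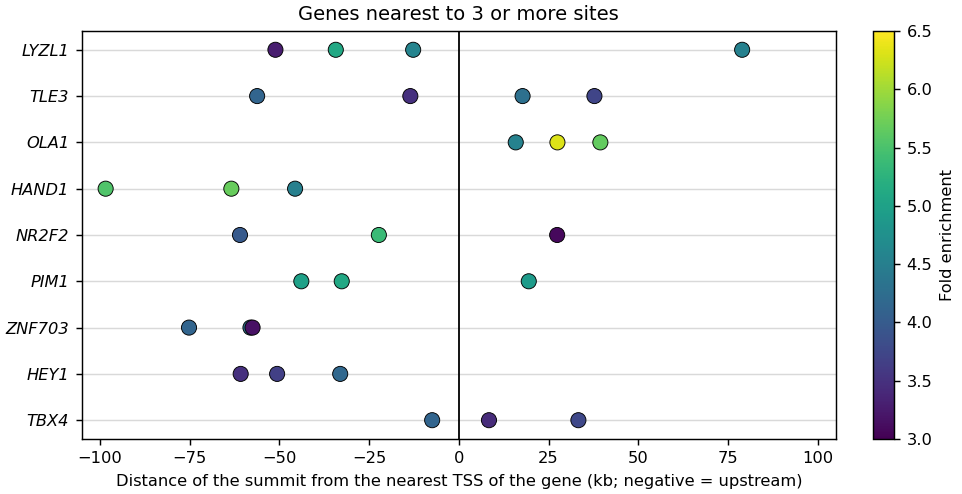
Position of each site (point) relative to the nearest TSS of its gene in kb (horizontal axis, negative for upstream) for the 9 genes with 3 or more sites (rows), coloured by fold enrichment from 3 to 6.5. HAND1, ZNF703 and HEY1 have upstream sites alone, OLA1 downstream sites alone, and the other genes both.

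Gene lists were counted against the intergenic sequence that belonged to them, since long intergenic tracts collect more sites. Over all genes there were 0.815 sites per megabase of eligible sequence. Of 30 Wnt target and feedback genes, 3 were nearest to a site (4 sites, 1.67 per megabase, exact Poisson 95% interval 0.455 to 4.27). LEF1, a TCF/LEF factor gene, had a site 78932 bp upstream at 5.36. DKK1, which encodes a secreted Wnt inhibitor, had 2 sites at 4.25 and 3.62. NKD1, an intracellular feedback inhibitor gene, had 1 site at 4.08 with 2 TCF core matches. Of 45 genes of Wnt ligands, receptors and inhibitors, FZD7, a Frizzled receptor gene, had 2 upstream sites at 7.0 and 5.92, and ROR1, a receptor of noncanonical Wnt ligands, had 1 at 5.04.

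Regulators of ERK signalling and AP-1 genes were nearest to 8 sites at 5 of 30 genes, 3.78 per megabase (1.63 to 7.45). DUSP6, a phosphatase gene acting on ERK, had sites at 5.98 and 4.25 and a promoter region of 5.31. SPRY2 and SPRY4, which encode Sprouty inhibitors of receptor tyrosine kinase signalling, had 4.86 and 3.16, and 4.26 and 4.18. JUN, an AP-1 subunit gene, had 4.15 at 86374 bp upstream with a TCF core. None of these 7 windows held an AP-1 match, nor did that of the fifth gene, DUSP1, at 3.74. The share over all sites was 14.2%, so this count is too small to set these genes apart. Cell cycle regulators had 5 sites at 4 of 28 genes, 4.32 per megabase (1.40 to 10.1). These were GADD45A at 7.91 and 4.54, the antiproliferative genes BTG1 at 5.85 and BTG2 at 4.90, and the CDK inhibitor gene CDKN2C at 3.78.

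Hedgehog and Notch genes had 6 sites at 4 of 30 genes, 4.25 per megabase (1.56 to 9.26), of which HEY1 held 3. GAS1, a growth arrest gene and Hedgehog co-receptor, had 1 distal site at 5.04 on 12 reads, 79404 bp downstream of its TSS, beside a promoter region of 5.11. BOC, another Hedgehog co-receptor gene, had 4.48, and PTCH1, the Hedgehog receptor gene, 3.89. TGF-beta and BMP genes had 7 sites at 6 of 45 genes, 2.19 per megabase (0.881 to 4.52), with NOG and FST, which encode secreted BMP and activin antagonists, at 4.80 and 4.69, ID1 at 4.55 and the inhibitory SMAD6 at 4.19. The intervals of the ERK and AP-1, cell cycle, Hedgehog and Notch, and TGF-beta and BMP lists lay above the rate over all genes, the last of them narrowly, and each on 8 sites or fewer. The 11 lists were chosen with earlier results known and their intervals were not adjusted for their number. The Poisson intervals also take each site as independent, while some sites lay close together. The 3 HEY1 sites spanned 27721 bp, the 2 DUSP6 sites 17314 bp and the 2 SPRY2 sites 2111 bp. The intervals are therefore too narrow, and no enrichment of a list is drawn from them.

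The other lists, the Wnt lists among them, had rates whose intervals included that over all genes. Guidance genes had 6 sites at 5 of 60 genes (1.41 per megabase, 0.518 to 3.07), including SEMA3E at 6.76 and 5.89, SEMA6A at 5.41, the ephrin receptor EPHA4 at 5.23 and the Slit receptor ROBO1 at 5.13. Epithelial-mesenchymal transition regulators and cadherins had 3 sites at 3 of 32 genes (0.983 per megabase), namely CDH9 at 5.12, CDH12 at 5.05 and GRHL2, an epithelial factor gene, at 4.84. Intestinal lineage factors had 1 site of 27 genes, at GATA6 (3.85). EGF and FGF family genes had 1 of 30, at FGF1 (3.60), and matrix and integrin genes 1 of 44, at TNR (5.08).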

How the data were processed

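ChIP-seq samples of TCF7L1 and TCF7L1-MUT, 1 each, were grouped by the genotype in their labels. Per the study's methods and labels, the authors trimmed reads with skewer, used BWA (v0.7.12) for mapping to GRCh38/hg38 and MACS2 (v2.1.0) for peak calling in each sample. Use of an input library, the q-value threshold and the handling of duplicates are not given in the sources used here.

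The deposited peak lists give the fold enrichment (a ratio with a pseudocount of 1), the −log10 p-value and −log10 q-value that the authors obtained for each summit. A deposited score, derived from the −log10 q-value, was left aside. Each region was placed by its first listed summit. Reads and background were solved from fold enrichment and p-value, with a residual under 0.001 for 100% of TCF7L1 and 99.5% of TCF7L1-MUT regions (checked on simulated data).

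Genes came from GENCODE release 44 and sequence from hg38 (1-based coordinates). Words of 31 bases were counted over 194 sequences. Patterns were searched on both strands within 100 bp of the summit. Territory windows of the same length tile all sequence that meets the distance rules and were not filtered for copies. Shares have Wilson 95%, differences Newcombe, medians binomial and rates exact Poisson intervals.

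The members, gene lists and patterns were chosen with earlier results of these data known. Named were the 10 sites of highest fold enrichment, genes nearest to 3 or more sites, up to 4 genes per list and the sites at each limit. Sequences were shown by strength within pattern sets, with sites on chromosome 8 not eligible, and at 100 bases to either side of the summit, wider than first planned, so that each match is visible. The GC-weighted background and flanks at other window widths were added after seeing the data. Alternatives were a stricter q-value or fold enrichment, the summit of highest q-value, the 5′ end of each gene, a distance to mutant regions, no repeated words, and other windows.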

Additional observations from a re-analysis of the deposited data

How the results depend on the processing

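No paired analysis was possible because 1 sample stood for each genotype, so leaving out a replicate was not possible either. Of 48 values under the alternatives, 38 stayed within the interval of the reported value or within 1.5 times of the reported count. That count includes values with little or no room to move. No member lay within 10 kb of a mutant region, so the 7 values of that setting were fixed. The choice of summit could alter few sites, as 11 had several summits. A fold enrichment of at least 5 left 212 sites near 203 genes and raised the median fold enrichment to 5.73, and a q-value of at most 0.001 raised it to 5.01, both because weaker sites were removed. With windows of 50 bp to either side the shares fell to 11.8% for the TCF core, 6.69% for AP-1 and 3.45% for FOX, and with 250 bp they rose to 39.4%, 22.5% and 18.1%, since the searched length changed. Flanking windows of the same width held AP-1 in 1.83% and 8.82%, and FOX in 3.14% and 14.7%, so AP-1 stayed above its flanks at each width. Using the 5′ end of each gene alone gave 468 sites, of which 448 were members. Depth limits what can be said of single sites, since the median site rested on 22 reads.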
